A study of Rattus norvegicus with 12 samples.

Results

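The genes examined here control the cell division cycle and the response to DNA damage, and they were followed in primary rat oligodendrocyte precursor cells (OPCs) exposed to inflammatory cytokines. They were the G1 cyclin Ccnd1 and its partner kinase Cdk6, the CDK inhibitor Cdkn1a (p21), the small GTPase Rras, the stress sensors Gadd45b and Gadd45g, and the mitotic genes Ccnb1, Cdca8 and Kif20b. These 9 genes were chosen by name out of the 30562 genes in the count tables. Of them, 5 (Ccnd1, Cdk6, Rras, Ccnb1 and Cdca8) were found by their coordinates and 4 by a symbol joined to the Ensembl identifier. All 9 averaged 5 or more counts in the 12 libraries and so passed the filter on low counts, as did 13348 genes in all.

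RNA was sequenced from cultures prepared from the cortex of wild-type Sprague-Dawley pups at P0-P2, with both sexes pooled, in 4 groups of 3 libraries. CTL cells received vehicle (DMSO) only, GAL cells received galinex, an agonist of the receptor GPR17, at 10 nM, CTK-2 cells received a cocktail of 3 cytokines (IFN-γ, IL-1β and TNF-α, each at 2 ng/mL), and CTK2+GAL cells received the same cytokines and, 6 h later, 10 nM galinex. All groups were treated on transfer from proliferation medium to differentiating medium with thyroid hormone and without growth factors. RNA was collected 24 h after galinex or its vehicle, so every value belongs to cells in differentiating medium. The OPCs were shaken off mixed glial cultures after a first shaking that removes microglia, and the study's methods describe staining of such a culture in which few astrocytes and no microglia were seen. The labels do not say whether the libraries of a group came from separate preparations, so the p-values measure the spread between these libraries only.

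OPCs are the dividing cells of the oligodendrocyte lineage, and they leave the cell cycle when they mature into myelin-forming cells. Passage through G1 is driven by D-type cyclins bound to CDK4 or CDK6, and entry into mitosis by cyclin B bound to CDK1. The transcription factor p53 stops the cycle mainly through p21, which inhibits cyclin-CDK complexes, and a lasting arrest with secretion of inflammatory factors is called senescence. The GADD45 proteins are small stress-induced proteins that bind p21 and stress kinases.

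The libraries held between 2600797 (GAL replicate 1) and 8978185 counted read pairs, and all others held at least 4718825. Levels are given as CPM, counts scaled to a common TMM-normalized library size, and comparisons between genes as CPM per kilobase of exon (RPKM). The labelled cell type was checked on its markers. In CTL, the precursor markers Pdgfra and Ptprz1 lay at 388 to 442 and 1730 to 1910 CPM, and the myelin gene Mag at 153 to 198 CPM. Of 13 listed microglia markers, 4 had a symbol (P2ry12, C1qc, Csf1r and Ptprc). Symbols were available only for genes that the study called in CTK-2 versus CTL, so a change of these markers there follows from their choice. Their summed level was 2.24 to 10.5 CPM in the libraries without cytokines and 18.5 to 24.3 CPM in those with cytokines. Ptprc was at 0 in 3 of the 6 libraries without cytokines and the other 3 markers in none. CTL replicate 3 (9.73 CPM) and GAL replicate 3 (10.5 CPM) stood apart from the other 4 libraries without cytokines (2.24 to 4.37 CPM). The summed level moved with every cytokine comparison given here, and its part in them was not tested.

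Ccnd1, Cdk6, Cdkn1a, Rras, Gadd45b and Gadd45g were 2.11-fold to 8.47-fold higher with cytokines, both without and with galinex, and no library with cytokines overlapped one without. The 3 mitotic genes stood lower in CTK-2, at 0.519 to 0.581 times their level in CTL, but none of them passed the thresholds in CTK2+GAL versus GAL. Galinex changed none of the 9 genes past the thresholds. The plot of the 9 genes by library shows both patterns.

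**Figure D1:**
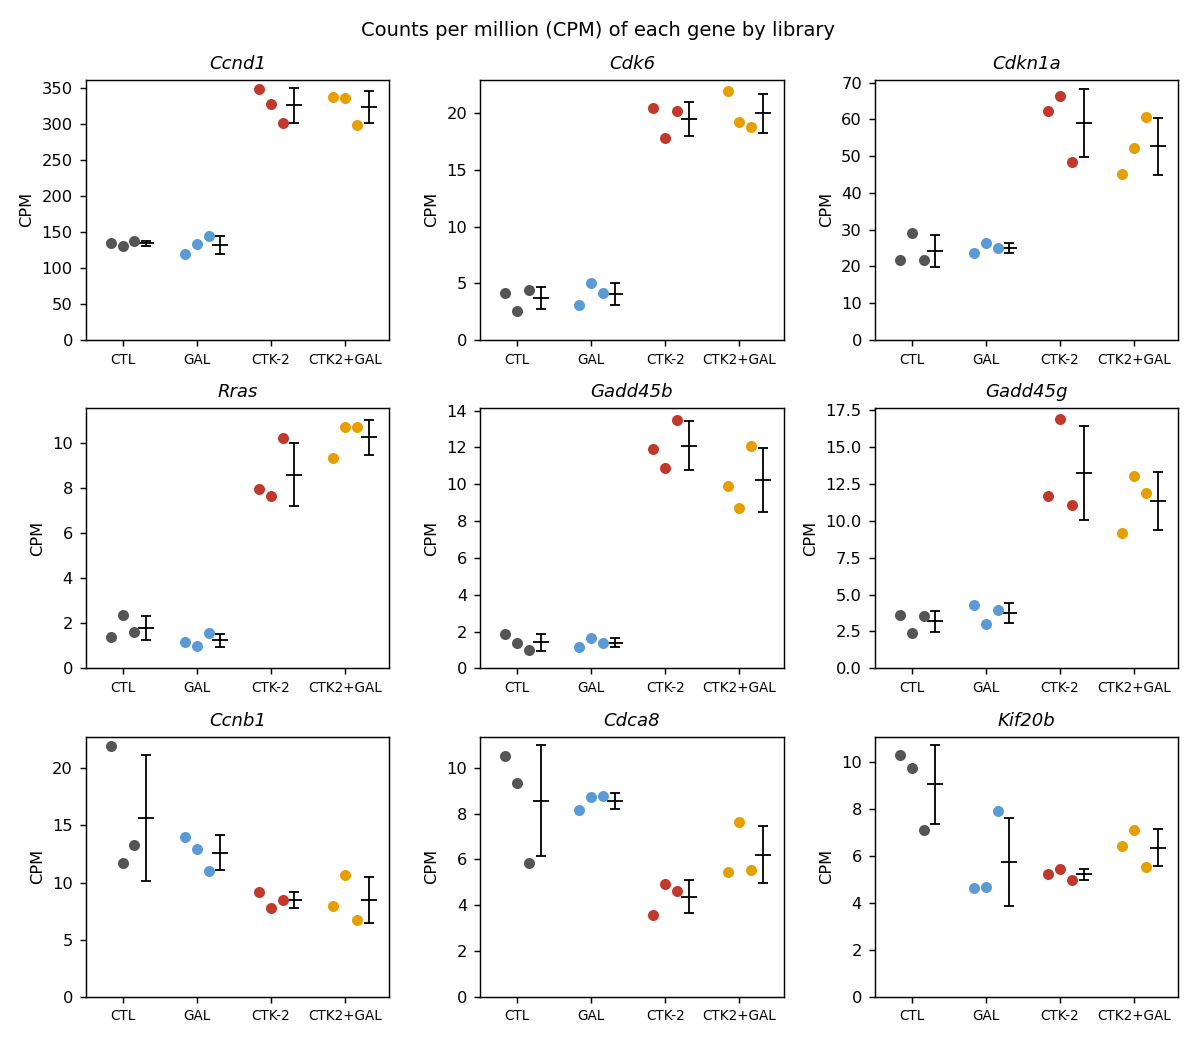
CPM of each of the 9 genes (vertical axes, starting at 0) in the 12 libraries; points are the libraries of a group in the order of replicates 1 to 3, and the black bars give the mean ± SD (n = 3). In the upper 6 panels both cytokine groups lie above both groups without cytokines, whereas in the lower 3 panels the spread within CTL, from 11.7 to 22.0 CPM for Ccnb1, is wide and the CTK2+GAL libraries lie close to those of GAL for Kif20b.

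A gene was called at an adjusted p of at most 0.05 (edgeR's quasi-likelihood test, Benjamini-Hochberg adjustment over 13348 genes) and a log2 fold change of 0.59 or more in either direction. At these thresholds 17.3% of the tested genes were called in CTK-2 versus CTL, 11.5% as higher and 5.79% as lower. All 9 genes were called there, but symbols were available only for genes that the study itself had called in that comparison, so this count was fixed by the choice of genes and is given as a description. CTK2+GAL versus GAL compares 6 other libraries. In it 17.4% of the tested genes were called, 11.7% as higher and 5.74% as lower, and 6 of the 9 genes were called, all as higher. A closer background is the set of 1784 genes with a symbol. Of those with a higher mean in CTK-2 than in CTL, 88% were called as higher in CTK2+GAL versus GAL, against 6 of 6 here, and of those that were lower, 81% were called as lower, against 0 of 3 here.

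Among the genes of the G1 phase, Ccnd1 (cyclin D1, chr1:200089002-200098602, minus strand, mRatBN7.2) was the most abundant of the 9. It was measured at 134, 131 and 137 CPM in CTL and at 119, 133 and 144 CPM in GAL, against 349, 328 and 301 CPM in CTK-2 and 337, 336 and 298 CPM in CTK2+GAL. Every library with cytokines lay at more than 2 times the level of every library without, and the galinex groups overlapped with their counterparts. The log2 fold change was 1.28 (SE 0.075) in CTK-2 versus CTL and 1.28 (SE 0.075) in CTK2+GAL versus GAL, where the adjusted p was 2.22e-10. The difference between these log2 fold changes (the interaction of cytokines and galinex) was 0.00, with a 95% confidence interval of -0.22 to 0.22.

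Cdk6 (chr4:30646460-30829634, minus strand), the kinase that cyclin D1 activates, started from a low level and increased more. It stood at 4.13, 2.58 and 4.38 CPM in CTL and 3.10, 5.02 and 4.12 CPM in GAL, and at 20.5, 17.8 and 20.2 CPM in CTK-2 and 22.0, 19.2 and 18.8 CPM in CTK2+GAL. The groups with and without cytokines were far apart, and those with and without galinex overlapped. Its log2 fold change was 2.37 (SE 0.18) in CTK-2 versus CTL and 2.20 (SE 0.18) in CTK2+GAL versus GAL (edgeR, adjusted p = 2.01e-08).

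A list of 24 G1 cyclins, kinases and E2F factors held 5 genes with a symbol, Ccnd1 and Cdk6 among them. Of the other 3, 2 were called as higher and 1 as lower in both cytokine comparisons. For CTK-2 versus CTL this was fixed by the source of the symbols, and listed genes without a symbol could not be counted. The share of named genes called likewise in CTK2+GAL versus GAL was 88% of the higher and 81% of the lower ones. E2f2, a transcription factor that activates S-phase genes, rose in CTK2+GAL versus GAL from 3.52 to 4.66 CPM up to 13.3 to 17.7 CPM (log2 fold change 1.82, SE 0.23), and Mycn, a growth-promoting transcription factor, rose by a log2 fold change of 1.02 (SE 0.20). Ccne1 (cyclin E1), which drives the step from G1 to S, fell by 0.68 on the log2 scale (SE 0.15, edgeR adjusted p = 0.00117), so the G1 genes did not all move in 1 direction.

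Cdkn1a (chr20:7149217-7159585, plus strand) encodes p21, the inhibitor that p53 induces. The libraries gave 21.7, 29.2 and 21.7 CPM in CTL and at 23.7, 26.5 and 25.1 CPM in GAL, against 62.3, 66.3 and 48.5 CPM in CTK-2 and 45.1, 52.2 and 60.7 CPM in CTK2+GAL. The lowest cytokine library was above the highest library without cytokines, and the 2 cytokine groups overlapped. Its log2 fold change was 1.30 (SE 0.14) in CTK-2 versus CTL and 1.07 (SE 0.14) in CTK2+GAL versus GAL (edgeR, adjusted p = 6.74e-06). On the RPKM scale Cdkn1a came next after Ccnd1, with 10.3 against 60.6 RPKM in CTL and 25.0 against 148 RPKM in CTK-2.

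The promoter of Cdkn1a is shown because the gene is the best known target of p53. A match to the p53 half-site consensus, searched on both strands and marked in capitals, begins 201 bases before the start in the 250 bases upstream of the annotated start (RefSeq, build GRCr8, chr20:7150682-7150931, plus strand, written 5′ to 3′). Such a match is held by 6.56% of the 27457 windows of the same length, and it describes the letters only.
Cdkn1a: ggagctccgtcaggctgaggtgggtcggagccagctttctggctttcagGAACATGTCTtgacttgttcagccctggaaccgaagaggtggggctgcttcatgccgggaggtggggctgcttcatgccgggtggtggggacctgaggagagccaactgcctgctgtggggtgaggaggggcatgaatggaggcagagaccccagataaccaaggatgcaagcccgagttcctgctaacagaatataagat

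The 2 other CDK inhibitors with a symbol had negative log2 fold changes. Cdkn1c (p57), an inhibitor linked to differentiation, fell from 288 to 310 CPM in GAL down to 184 to 204 CPM in CTK2+GAL (log2 fold change -0.59, SE 0.064, edgeR adjusted p = 5.48e-07). Cdkn2c (p18), an inhibitor of CDK4 and CDK6, had a log2 fold change of -0.71 (SE 0.23) in CTK-2 versus CTL and of -0.47 (SE 0.21) in CTK2+GAL versus GAL, where it missed both thresholds (edgeR, adjusted p = 0.0888) and the libraries overlapped.

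A list of 37 genes taken as p53 targets held 8 genes with a symbol, Cdkn1a among them. Control of these genes by p53 was not tested here. In each cytokine comparison 7 were called as higher and 1 as lower. For CTK-2 versus CTL this was fixed by the source of the symbols. In CTK2+GAL versus GAL, 88% of all named genes that were higher in CTK-2 were called as higher, and 81% of the lower ones as lower. The summed level of the 8 genes was 105 to 121 CPM in the 6 libraries without cytokines and 188 to 224 CPM in the 6 with cytokines. Btg2, an antiproliferative gene, rose from 1.16 to 2.18 CPM in GAL up to 11 to 15.8 CPM in CTK2+GAL (log2 fold change 2.94, SE 0.29). Tp53i11 (log2 fold change 2.06, SE 0.17) and the atypical cyclin Ccng2 (1.07, SE 0.12) rose as well, as did the death receptor gene Fas (2.48, SE 0.34). Since only called genes carry a symbol, members of the list that did not respond to cytokines could not be counted.

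Rras (chr1:95500566-95504357, plus strand) encodes R-Ras, a small GTPase of the RAS family that acts on integrins and cell adhesion. It was nearly silent without cytokines, with 1.38, 2.38 and 1.62 CPM in CTL and 1.16, 1 and 1.55 CPM in GAL. With cytokines it reached 7.95, 7.63 and 10.2 CPM in CTK-2 and 9.33, 10.7 and 10.7 CPM in CTK2+GAL, so the groups were separate in both comparisons. For Rras the log2 fold change was 2.27 (SE 0.25) in CTK-2 versus CTL and 3.02 (SE 0.27) in CTK2+GAL versus GAL (edgeR, adjusted p = 4.66e-08). This difference of 0.75 had a 95% confidence interval of -0.14 to 1.64 and did not pass the test (interaction, edgeR adjusted p = 1). Mras, another GTPase of the family, rose by a log2 fold change of 0.89 (SE 0.084) in CTK2+GAL versus GAL.

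Gadd45b (chr7:8778007-8780046, minus strand) gave the largest fold change of the 9 genes in CTK-2 versus CTL. Its level was 1.89, 1.39 and 0.973 CPM in CTL and 1.16, 1.67 and 1.37 CPM in GAL, and at 11.9, 10.9 and 13.5 CPM in CTK-2 and 9.91, 8.70 and 12.1 CPM in CTK2+GAL. No cytokine library came near those without cytokines. Gadd45b had a log2 fold change of 3.08 (SE 0.25) in CTK-2 versus CTL and 2.82 (SE 0.27) in CTK2+GAL versus GAL (edgeR, adjusted p = 1.10e-07).

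Gadd45g (chr17:13376839-13378610, minus strand) rose less, from a higher level. Its level was 3.61, 2.38 and 3.57 CPM in CTL and 4.27, 3.01 and 3.95 CPM in GAL, and at 11.7, 16.9 and 11.1 CPM in CTK-2 and 9.14, 13.0 and 11.9 CPM in CTK2+GAL. CTK-2 replicate 2 was the highest library, and the groups with and without cytokines did not overlap. Gadd45g had a log2 fold change of 2.04 (SE 0.24) in CTK-2 versus CTL and 1.65 (SE 0.24) in CTK2+GAL versus GAL (edgeR, adjusted p = 2.46e-05). The third member of the family, Gadd45a, the one that p53 induces directly, moved in the opposite direction. It fell from 30.3 to 32.1 CPM in GAL to 17.7 to 20.1 CPM in CTK2+GAL (log2 fold change -0.75, SE 0.11, edgeR adjusted p = 2.40e-05), and CTK-2 versus CTL gave -0.63 (SE 0.11).

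The plot of fold changes sets the 4 comparisons side by side.

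**Figure D2:**
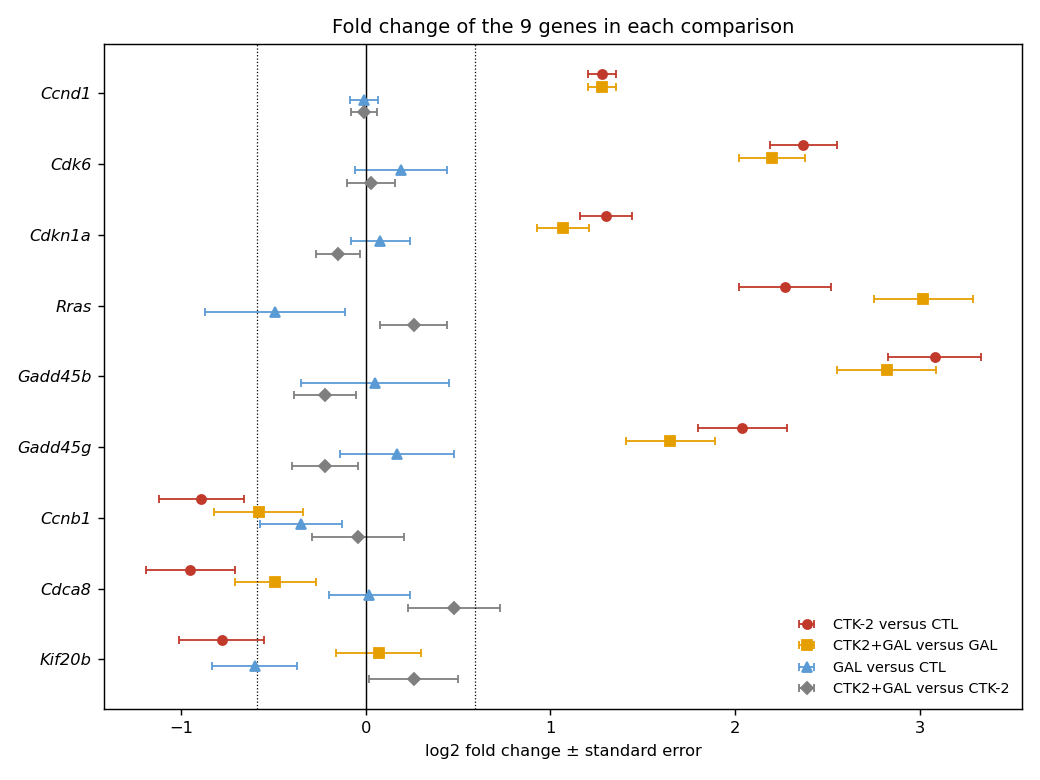
Log2 fold change (points) ± standard error (bars) of each of the 9 genes in 4 comparisons; the dotted lines mark the threshold of 0.59 in either direction. The red and orange points lie on the right for the first 6 genes, up to 3.08 for Gadd45b, and are farthest apart for Rras, at 2.27 and 3.02, and for Kif20b, at -0.78 and 0.07.

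Ccnb1 (chr2:31912193-31921172, minus strand) encodes cyclin B1, the activator of CDK1 at entry into mitosis. It was measured at 22.0, 11.7 and 13.3 CPM in CTL and 14.0, 12.9 and 11 CPM in GAL, and at 9.2, 7.81 and 8.52 CPM in CTK-2 and 7.97, 10.7 and 6.76 CPM in CTK2+GAL. CTL replicate 1 stood well above the other CTL libraries, and every cytokine library lay below every library without cytokines. The log2 fold change was -0.89 (SE 0.23) in CTK-2 versus CTL and -0.58 (SE 0.24) in CTK2+GAL versus GAL, which missed both thresholds (edgeR, adjusted p = 0.0577). Without CTL replicate 1 its value in CTK-2 versus CTL was -0.56 and short of the threshold. With the CTL and GAL libraries paired by replicate number (replicate block for these groups), Ccnb1 was called in CTK2+GAL versus GAL (log2 fold change -0.64, edgeR adjusted p = 0.0044). CTK2+GAL libraries have no part in that block, so this comparison is not paired. The p-value leaves out spread between the GAL libraries. Without CTK2+GAL replicate 2, Ccnb1 was also called in CTK2+GAL versus GAL (-0.77).

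Cdca8 (chr5:137176417-137198629, minus strand) encodes borealin, a subunit of the chromosomal passenger complex that guides chromosome segregation. It was measured at 10.5, 9.34 and 5.84 CPM in CTL and 8.15, 8.71 and 8.77 CPM in GAL, and at 3.56, 4.91 and 4.63 CPM in CTK-2 and 5.44, 7.63 and 5.54 CPM in CTK2+GAL. CTL replicate 3 was low among the CTL libraries, and the cytokine libraries lay below their counterparts in both comparisons. The log2 fold change was -0.95 (SE 0.24) in CTK-2 versus CTL and -0.49 (SE 0.22) in CTK2+GAL versus GAL, which was not called (edgeR, adjusted p = 0.0963). The interval of the latter, from -0.96 to -0.01, held values on both sides of the fold change threshold.

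Kif20b (chr1:232428371-232483787, plus strand) encodes a kinesin motor that works in cytokinesis. Its level was 10.3, 9.74 and 7.13 CPM in CTL, 4.66, 4.69 and 7.91 CPM in GAL, 5.23, 5.45 and 5.00 CPM in CTK-2 and 6.42, 7.10 and 5.54 CPM in CTK2+GAL. CTL held the highest libraries, and 2 of the 3 GAL libraries were below all the cytokine libraries. The log2 fold change was -0.78 (SE 0.23) in CTK-2 versus CTL and 0.07 (SE 0.23, 95% confidence interval -0.42 to 0.57) in CTK2+GAL versus GAL (edgeR, adjusted p = 0.843). The difference between these values was 0.86 with an interval of 0.17 to 1.54, and it did not pass the test over all genes (interaction, edgeR adjusted p = 1). The low GAL libraries include GAL replicate 1, the shallowest of all. The 3 GAL libraries together held 86 read pairs of Kif20b.

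In libraries of whole cultures, fewer dividing cells and less mitotic RNA per cell cannot be told apart. In CTK-2 versus CTL the libraries of the groups did not overlap for any of the 9 genes, as for 49.1% of all tested genes. In CTK2+GAL versus GAL they did not overlap for 8 of the 9, as for 49.5% of all tested genes, and Kif20b was the exception. The background of separate groups was thus high in both comparisons.

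The promoters of the 3 mitotic genes are shown because many genes of mitosis share CCAAT boxes and a cell cycle homology region near their start. The letters CCAAT and TTTGAA were searched on both strands in the 250 bases before the annotated start (RefSeq, build GRCr8) and are in capitals, reading ATTGG or TTCAAA where they lie on the other strand. CCAAT was found in 34.3% and TTTGAA in 16% of all 27457 windows. The windows are chr2:33655226-33655475 on the minus strand for Ccnb1, chr5:142483200-142483449 on the minus strand for Cdca8 and chr1:241840766-241841015 on the plus strand for Kif20b, each written 5′ to 3′ along the gene.
Ccnb1: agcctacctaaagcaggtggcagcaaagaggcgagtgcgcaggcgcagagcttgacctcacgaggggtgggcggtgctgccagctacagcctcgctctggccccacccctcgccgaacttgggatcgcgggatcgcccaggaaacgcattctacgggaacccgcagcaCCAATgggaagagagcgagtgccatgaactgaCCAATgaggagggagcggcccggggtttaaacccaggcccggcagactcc
Cdca8: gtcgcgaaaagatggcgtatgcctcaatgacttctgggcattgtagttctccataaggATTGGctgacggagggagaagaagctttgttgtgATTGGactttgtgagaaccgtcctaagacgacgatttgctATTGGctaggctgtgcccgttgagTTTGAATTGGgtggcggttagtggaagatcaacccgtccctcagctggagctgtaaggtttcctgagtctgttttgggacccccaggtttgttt
Kif20b: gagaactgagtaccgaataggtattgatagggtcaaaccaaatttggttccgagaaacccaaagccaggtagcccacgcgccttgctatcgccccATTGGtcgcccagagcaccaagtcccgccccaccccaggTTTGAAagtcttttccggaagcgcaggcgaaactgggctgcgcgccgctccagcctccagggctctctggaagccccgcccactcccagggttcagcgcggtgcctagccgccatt

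CCAAT was present 2 times in the Ccnb1 window, 4 times in that of Cdca8 and 1 time in that of Kif20b. TTTGAA was present 1 time each in Cdca8 and Kif20b, and in Cdca8 it shared its last base with an ATTGG. Of the other members, 4 had a window in the table and 2, Ccnd1 and Cdk6, had none. CCAAT was also found 2 times for Gadd45b and 1 time for Gadd45g, genes that rose with cytokines, and not for Cdkn1a or Rras. TTTGAA was in none of these 4 windows. The window of Rras held matches to the NF-κB consensus (6.41% of all windows) and to TTCNNNGAA, the pattern bound by STAT factors (7.52%), which overlap each other, and also a p53 half-site. Kif20b, which was lower in CTK-2, held a TTCNNNGAA as well.

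A list of 73 mitosis genes held 10 with a symbol, the 3 members among them. All 10 were called as lower in CTK-2 versus CTL, with a median log2 fold change of -0.81 against 0.001 over all tested genes. This count was fixed by the source of the symbols, and it was 3 without CTL replicate 1. In CTK2+GAL versus GAL none of the 10 was called by edgeR or by DESeq2 (5 at an unadjusted edgeR p under 0.05), although 9 had a negative log2 fold change and the median was -0.49 against 0.006 over all tested genes. With the CTL and GAL libraries paired by number 2 were called, under the limit given for Ccnb1, and 3 without GAL replicate 3. Ncapd2, a condensin subunit, went from 52.6 to 62.1 CPM in GAL to 36.7 to 43.0 CPM in CTK2+GAL, and it missed the fold change threshold only (log2 fold change -0.53, SE 0.11, edgeR adjusted p = 0.000514). Birc5 (survivin), a partner of Cdca8 in the chromosomal passenger complex, had a log2 fold change of -0.61 (SE 0.24, edgeR adjusted p = 0.0552), and Cenpm, a centromere protein, one of -0.57 (SE 0.23, edgeR adjusted p = 0.0602).

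The summed level of the 10 mitosis genes was 182, 151 and 120 CPM in CTL, 145, 146 and 121 CPM in GAL, 96.4, 88.5 and 83.7 CPM in CTK-2 and 100, 102 and 90.4 CPM in CTK2+GAL. All 6 libraries with cytokines lay below all 6 without them, and CTL replicate 1 was the highest of all. These genes have a symbol because the study called them in CTK-2 versus CTL, so the separation of those groups follows from the choice of genes. CTK2+GAL versus GAL compares other libraries. The lowest sums without cytokines were those of CTL replicate 3 and GAL replicate 3, the same 2 libraries with the most microglia markers, and the part of these in the sums was not tested. Without CTL replicate 3 the log2 fold changes in CTK-2 versus CTL were -1.01 for Ccnb1, -1.17 for Cdca8 and -0.94 for Kif20b, and without GAL replicate 3 those in CTK2+GAL versus GAL were -0.68, -0.47 and 0.42, none of the latter called. The plot of summed levels shows the mitosis genes beside the p53 targets and the microglia markers.

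**Figure D3:**
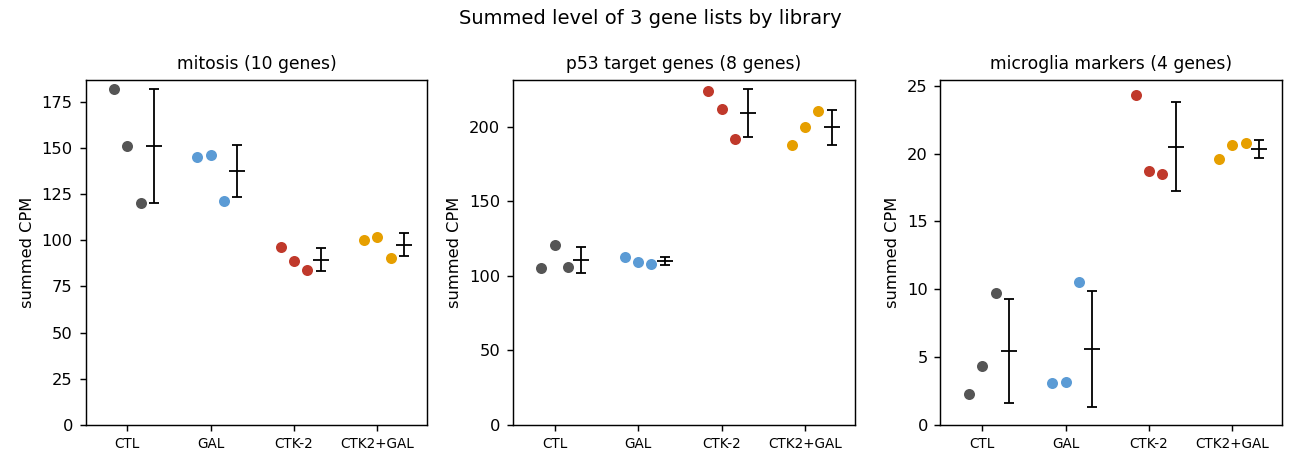
Summed counts scaled to a common library size, CPM (vertical axes, starting at 0) of the mitosis genes, the p53 target genes and the microglia markers that had a symbol, by library; points are replicates 1 to 3 in order and black bars the mean ± SD (n = 3). Mitosis genes span 83.7 to 102 CPM with cytokines and 120 to 182 CPM without, p53 targets 188 to 224 against 105 to 121, and microglia markers 18.5 to 24.3 against 2.24 to 10.5. Symbols came from genes called in CTK-2 versus CTL, so the separation of those groups follows from the choice of genes.

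A list of 48 DNA replication genes held 4 with a symbol (Tk1, Dbf4, Ung and Rpa3). All 4 were called as lower in CTK-2 versus CTL, a count that was again fixed by the source of the symbols. It was 2 without CTL replicate 1 and 1 without CTK-2 replicate 3. In CTK2+GAL versus GAL none was called by edgeR or DESeq2, and 1 had an unadjusted edgeR p under 0.05. Without CTK2+GAL replicate 2, 1 was called. Tk1, the thymidine kinase of S phase, had a log2 fold change of -0.47 there (SE 0.17, edgeR adjusted p = 0.0368), short of the fold change threshold. Dbf4, the activator of the replication kinase CDC7, had -0.09 (SE 0.24), and Ung, a uracil glycosylase of DNA repair, -0.13 (SE 0.20). Rpa3 had -0.26 (SE 0.22). Of 29 listed genes of the DNA damage response, 2 had a symbol. Xrcc6 (Ku70) fell by 0.61 on the log2 scale in CTK2+GAL versus GAL and Brca2 rose by 0.61.

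Genes of quiescence and growth arrest and genes of the senescence secretory response included both higher and lower calls. Only genes with a symbol could be read, 10 of 29 and 12 of 36 list members, and the background of all 1784 named genes leaned the same way, with 1196 of them above CTL in CTK-2. In CTK2+GAL versus GAL, 88% of those 1196 genes were called as higher and 81% of the lower named genes as lower. For CTK-2 versus CTL the counts were fixed by the source of the symbols. Of the 10 quiescence genes, 7 were called as higher and 3 as lower in both cytokine comparisons. Btg1, an antiproliferative gene, rose from 27.9 to 35.1 CPM in GAL up to 123 to 131 CPM in CTK2+GAL (log2 fold change 1.94, SE 0.081), and the transcription factor gene Klf6 (1.38, SE 0.084) and the growth arrest gene Gas6 (1.48, SE 0.10) rose as well. Of 12 senescence and secreted genes, 10 were called as higher and 0 as lower in CTK2+GAL versus GAL. Igfbp4 and Igfbp5 were called as lower in CTK-2 versus CTL and were not called in CTK2+GAL versus GAL. There Igfbp4 had a log2 fold change of -0.44 (SE 0.26, edgeR adjusted p = 0.204). Igfbp5 had -0.56 (SE 0.14, edgeR adjusted p = 0.00447) and missed the fold change threshold only.

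Several genes of this list encode inflammatory factors that cytokines are known to induce in many cells. Ccl2, a chemokine, had 0 counts in every GAL library, which allows up to 0.209 CPM at 3 counts over the group, and 10.3 to 16.5 CPM in CTK2+GAL, at least 68.6-fold higher. Icam1, an adhesion molecule, had 0 to 0.837 CPM in GAL and 17.7 to 19.9 CPM in CTK2+GAL (log2 fold change 4.99, SE 0.40), and Ets1, a transcription factor, had a log2 fold change of 1.31 (SE 0.13). The lists of cell cycle and p53 genes are compared in the plot of fold changes by list.

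**Figure D4:**
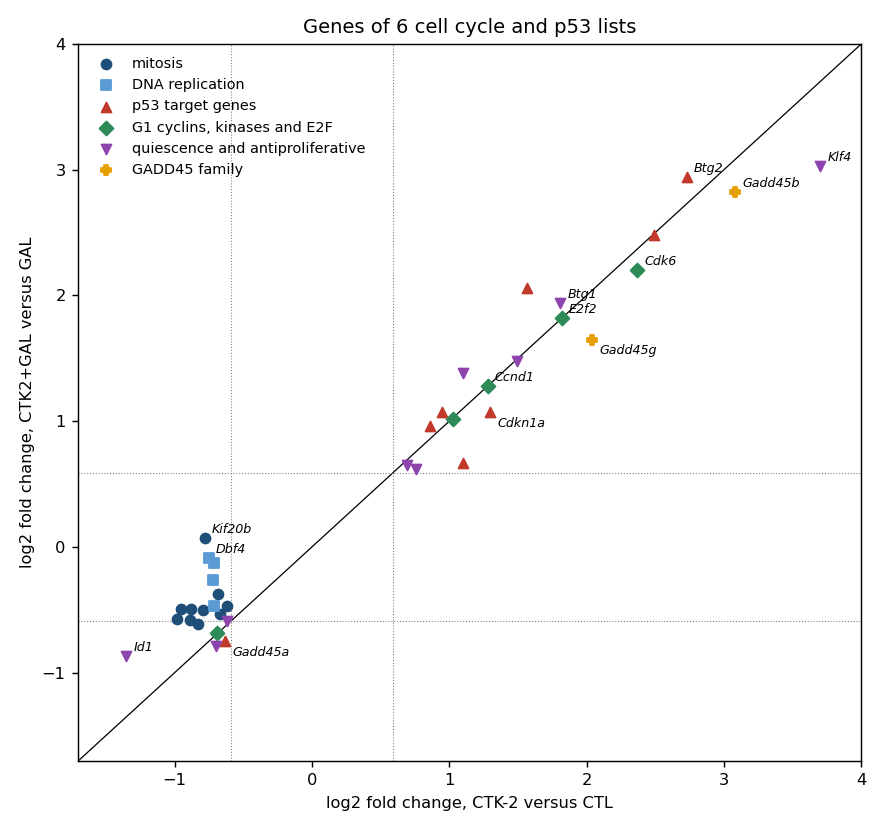
Log2 fold change in CTK2+GAL versus GAL (vertical axis) against that in CTK-2 versus CTL (horizontal axis) for the genes of 6 lists, each gene drawn once; the line marks equal values and dotted lines the threshold of 0.59. Genes that were higher with cytokines lie on both sides of the line, such as Klf4 (3.7 and 3.03) and Tp53i11 (1.57 and 2.06). The 10 mitosis and 4 DNA replication genes lie above it, with mitosis medians of -0.81 on the horizontal and -0.49 on the vertical axis. None of these differences was called, and symbols came from genes called on the horizontal axis.

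The markers of cell types that had a symbol moved with the same comparisons. A symbol was held by 3 of 7 precursor, 4 of 7 oligodendrocyte, 2 of 8 astrocyte and 4 of 13 microglia markers. Only genes called in CTK-2 versus CTL had one, so markers that did not respond could not appear. Among all named genes, 88% of the higher and 81% of the lower ones were called likewise in CTK2+GAL versus GAL. In CTK2+GAL versus GAL the 3 precursor markers with a symbol were called as higher (Cspg4 by a log2 fold change of 2.04, SE 0.095, Ptprz1 by 0.63 and Pdgfra by 0.77) and the mature oligodendrocyte markers Cldn11 (-0.91, SE 0.074) and Mag (-1, SE 0.086) as lower. Of the 2 astrocyte markers, Sox9, which precursors also express, rose by 1.81 on the log2 scale and Aldoc fell by 0.68. Of the 4 microglia markers with a symbol 3 were called as higher, P2ry12 (2.15, SE 0.31), C1qc (1.71, SE 0.45) and Ptprc (2.41, SE 0.70). The part of these cell types in the levels of the cell cycle genes was not tested.

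Galinex alone and galinex on top of the cytokines were compared for the same 9 genes. The share of all tested genes called was 0% in GAL versus CTL, in CTK2+GAL versus CTK-2 and for the interaction, and 0 of the 9 genes were called in each by edgeR and by DESeq2. At an unadjusted p under 0.05, edgeR gave 574, 545 and 376 genes in these comparisons. Among the 9 genes, Kif20b alone was in the first and the third of these sets, with a log2 fold change of -0.60 in GAL versus CTL (95% confidence interval -1.07 to -0.12, edgeR adjusted p = 0.997), and none was in the second. The intervals show how large an effect of galinex could have been missed. For Ccnd1 they were -0.17 to 0.15 in GAL versus CTL and -0.16 to 0.14 in CTK2+GAL versus CTK-2, and for Cdkn1a -0.26 to 0.42 and -0.40 to 0.11.

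For the lower genes the intervals were wider. That of Gadd45b in GAL versus CTL ran from -0.80 to 0.90, on 1.16 to 1.67 CPM in GAL. Cdca8 was higher in every CTK2+GAL library than in every CTK-2 library, with a log2 fold change of 0.48 and an interval of -0.05 to 1.01 (edgeR, adjusted p = 1), and Kif20b had the same order of libraries (0.26, interval -0.24 to 0.75). Such a separation of the libraries was seen for 11.5% of all tested genes in this comparison.

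On the RPKM scale the order of the genes in CTL was Ccnd1 (60.6), Cdkn1a (10.3), Cdca8 (5.68), Ccnb1 (4.77), Gadd45g (2.68), Rras (1.87), Cdk6 (1.66), Kif20b (1.58) and Gadd45b (1.10). Over the CTL libraries the ranges of Ccnd1 and Cdkn1a overlapped with no other, and that of Ccnb1 lay above that of Gadd45g. Cdca8 and Ccnb1 overlapped (3.87 to 6.96 and 3.57 to 6.70 RPKM), as did Gadd45g with Rras (2.01 to 3.04 and 1.43 to 2.48 RPKM) and each of Cdk6, Kif20b and Gadd45b with the gene before it. In CTK-2 the mitotic genes took the last 3 places, with Cdca8 at 2.90, Ccnb1 at 2.59 and Kif20b at 0.911 RPKM, below Gadd45g (11.1), Gadd45b (9.42), Rras (8.94) and Cdk6 (8.76).

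Over the 12 libraries the log2 CPM of the 6 genes that rose were correlated with one another (Pearson's r from 0.91 to 0.98), which describes the shared division into libraries with and without cytokines. Ccnb1 correlated with Cdca8 at 0.72 and with Kif20b at 0.49. The genes with a symbol whose pattern was most like that of Cdkn1a were Ctnna1 (α-catenin, r = 0.990), Scg3 (secretogranin III, 0.981) and Synpr (synaptoporin, 0.976). Those most like Ccnb1 were Ncapd2 (0.885), Zim1 (0.882) and Igsf1 (0.881), over the same 12 libraries, which share the cytokine contrast.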

How the data were processed

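RNA was analysed in 12 libraries, 3 for each of the 4 groups. The authors deposited count values, whole read pairs per gene, neither normalized nor filtered. Per the file headers they were made with featureCounts 2.0.0 on Ensembl exons (rat build mRatBN7.2) from reversely stranded pairs with both ends mapped, after alignment with STAR. Multimapping pairs and pairs shared by several genes were not counted, so near-identical genes lose reads. The files also give exon lengths per gene, used for RPKM.

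Counts of genes with a mean of at least 5 over the 12 libraries were normalized by TMM and fitted with edgeR 4.0.16 (quasi-likelihood F test, R 4.3.3) with 1 mean for each of the 4 groups. Benjamini-Hochberg adjustment covered the 13348 tested genes. Standard errors were derived from F, as the size of the log2 fold change over the root of F. The script was tested on simulated data.

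The tables hold Ensembl identifiers only. Symbols came from the study's supplementary table of genes called in CTK-2 versus CTL, joined through its mean count and fold change, which gave 1 gene for 1784 of 1786 entries. Of 1765 joined pairs with a chromosome in RefSeq GRCr8, 99.94% lay on the same chromosome. The table's fold changes and p-values were used for nothing else. The named genes are the 9 members, up to 3 further genes per list, ranked by adjusted p in CTK2+GAL versus GAL, and the 3 genes most correlated with Cdkn1a and with Ccnb1 among those with a mean count of at least 30. One gene that the rule gives is not reported here. Fas, Dbf4, Igfbp4 and Igfbp5 were added after their values were seen. The members and lists were chosen with earlier results of these data known.

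Log2 CPM deviations from the group means correlated between same-numbered CTL and GAL libraries (r = 0.26, 0.26 and 0.60), and those of other groups at 0.07 at most, so the numbers were taken to pair CTL with GAL. Differently numbered CTL and GAL libraries reached 0.23 (CTL 1 with GAL 2) and 0.15 (CTL 2 with GAL 1), so the data alone hardly tell numbers 1 and 2 apart. No labelled source of this pairing was used. The alternatives were DESeq2 1.42.0, its size factors in edgeR, total counts, other filters, a replicate block, a block for CTL and GAL only (chosen after seeing the data), the compared groups alone, the adjusted p alone and each replicate left out. Depth, between 2600797 and 8978185 counts per library, limits the genes near 1 CPM most. Imaging and quantitative PCR were not analysed here.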

Additional observations from a re-analysis of the deposited data

How the results depend on the processing

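The direction and call of the 6 rising genes held in both cytokine comparisons under every alternative and with each replicate left out. The genes called numbered 2104 in CTK-2 versus CTL and 2108 in CTK2+GAL versus GAL with DESeq2, and 5213 and 5290 with the adjusted p alone. Without a filter on low counts, 2 genes were called in GAL versus CTL and 4 for the interaction, none of them a member. With the replicate block, 7 of the 9 genes were called in CTK2+GAL versus GAL, since Ccnb1 passed at a log2 fold change of -0.60 (edgeR, adjusted p = 0.03), and 2 of the 10 mitosis genes were called. The block for CTL and GAL only gave the same counts, under the limit given for Ccnb1, and the blocks changed no other call of a member. The mitosis genes called in CTK-2 versus CTL ranged from 3 to 10 with a replicate left out (3 without CTL replicate 1, 6 without CTL replicate 2 or CTK-2 replicate 3), and those called in CTK2+GAL versus GAL from 0 to 3. DNA replication genes called in CTK2+GAL versus GAL numbered 1 with the adjusted p alone. For all other alternatives the count of mitosis genes in CTK2+GAL versus GAL was at most 2.

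With a replicate left out, log2 fold changes near 0 turned their sign. These ranged from -0.12 to 0.42 for Kif20b in CTK2+GAL versus GAL. In GAL versus CTL they ranged from -0.08 to 0.05 for Ccnd1, -0.18 to 0.33 for Gadd45b and -0.21 to 0.21 for Cdca8. In CTK2+GAL versus CTK-2 they ranged from -0.07 to 0.05 for Ccnd1, -0.04 to 0.08 for Cdk6 and -0.23 to 0.14 for Ccnb1. For the interaction they ranged from -0.31 to 0.02 for Cdk6 and -0.02 to 0.49 for Ccnb1. None of these values was called, and their cause was not tested.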
